A study of Physcomitrium patens with 10 samples.

Results

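The moss Physcomitrium patens carries many miRNA families that are numbered well above the classical land-plant families, and 32 of these, the other expressed moss families, are described here. A name was taken where its level reached 10 RPM (reads per 1000000) in any of 5 water states, its family number was that of miR893 or higher, and its family was none of 23 that had been set apart beforehand. This left 49 of the 280 names in the tables, and of 188 names over all families that reached 10 RPM, and all 49 carry the prefix ppt of this moss. The names were thus chosen by their levels in these same data, and the 23 families left out had been set apart with their changes known, so the values below are descriptions with no test.

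Plant miRNAs are short RNAs that a Dicer-like enzyme cuts from the arms of a hairpin precursor, 5p for the arm toward the 5′ end and 3p for the other. One arm is loaded into an Argonaute protein, where in plants it commonly guides the cleavage of a matching mRNA, and the other arm, often marked with a star, is usually degraded. Many families of this moss have no counterpart in flowering plants, and no target is stated for those described here because none could be named with certainty. Mosses have leaves of mostly a single cell layer and lose water readily, and P. patens is widely used to study how land plants meet and recover from drying.

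Small RNAs of 18 to 30 nt were sequenced from gametophores, the leafy shoots, grown on BCD medium. The groups were hydrated shoots (HD), shoots after a moderate loss of water (MDH), severely dehydrated or desiccated shoots (SDH), shoots sampled at partial rehydration (PRE) and shoots sampled at full rehydration (FRE). No genotype, agent or other treatment is labelled for any group, and no time, water content or age of the plants is given. Each group had 2 samples by their titles, numbered 2 and 3, but the treatment field of 7 of the 10 samples names another state than the title. The deposited values are 1 per group, so the samples behind them could not be left out in turn, no SD, interval or p-value could be computed for any difference, and the read depth is unknown. In whole shoots, fewer cells that make a miRNA and less of it per cell cannot be told apart.

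Levels ran over more than 3 powers of 10, and a single miRNA dominated them. miR1214 stood at 20106 RPM in HD, 16165 and 24344 in MDH and SDH, and 16373 and 16001 in PRE and FRE, and ranked 6 by mean level among 202 values of the whole series with near-identical copies counted once. It made up 46.7% of the RPM summed over these families in HD and 55.4%, 57.6%, 54.3% and 52.1% in MDH, SDH, PRE and FRE, counting copies once. At the other end miR1037 averaged 6.14 RPM over the 5 states and passed the minimum only in FRE. Summed by name, the 49 names held 7.64% of the RPM of all 280 names in hydrated shoots (HD), 8.11% and 9.29% in MDH and SDH, and 10.2% and 7.46% in PRE and FRE. With copies counted once the shares were 9.54% in HD, 10.2% and 12.1% in MDH and SDH, and 13.3% and 9.83% in PRE and FRE. The order of HD and FRE thus depends on how copies are counted. The summed RPM itself, by name, was 63555 in HD, 40815 and 58441 in MDH and SDH, and 41674 and 42683 in PRE and FRE. Over all 280 names it was 831487 in HD, 503544 and 629248 in MDH and SDH, and 407333.5 and 571803 in PRE and FRE. The higher share in PRE than in HD was thus not a higher level. Ligation and amplification favour some small RNAs, so ratios between miRNAs within a state are less reliable than those of 1 miRNA between states.

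**Figure D1:**
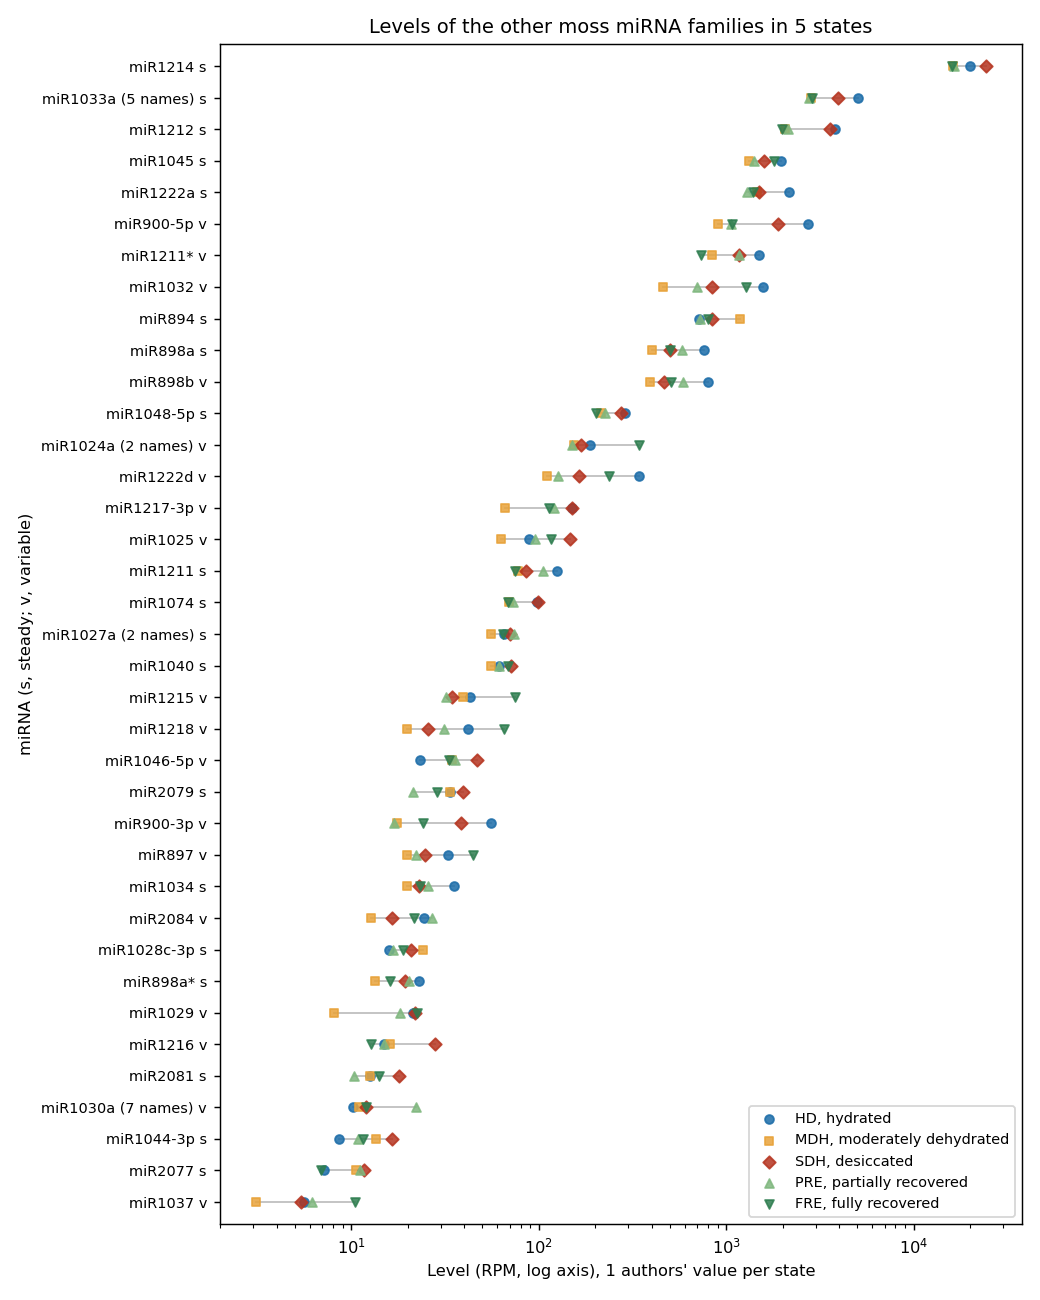
Level of each miRNA in RPM (horizontal log axis) in the 5 states, 1 point per state and 1 authors' value per point, with rows ordered by mean level and a grey line from the lowest to the highest state. miR1214 lies alone at the top between 16001 and 24344 RPM, and for most rows the 5 points lie close together.

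Of the 49 names, 24 were steady, meaning that the highest of the 5 states was under 2 times the lowest, and 25, or 51.0%, were variable, against 72.3% of all 188 names. The steady share was 49.0%, against 27.7% over all 188 names at 10 RPM or more (52 names), and 20.1% over the 139 names outside these families. That difference cannot be separated from the choice of families, since those set apart had known changes. The ratio of highest to lowest state ran from 1.29 to 3.43, with a median of 2.02 by name and 1.92 with copies counted once, and the median over all 188 names was 2.40. None of the 49 names at 10 RPM or more reached a ratio of 4, which 48 of the 139 other names did, a contrast with the same limit. By family, 15 held steady names alone, 14 variable names alone, and 3 held both kinds: miR898, miR1211 and miR1222.

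Several names share nearly all of their values and count as 1 observation. Copies whose levels lay within 5% or 0.5 RPM in every state form 4 sets: miR1033a to miR1033e, miR1030a to miR1030g, miR1024a with miR1024b, and miR1027a with miR1027b. These sets cover 16 of the 49 names. Counting each set once leaves 37 values, 19 steady and 18 variable. Reads that match more than 1 copy cannot be assigned to a single one.

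**Figure D2:**
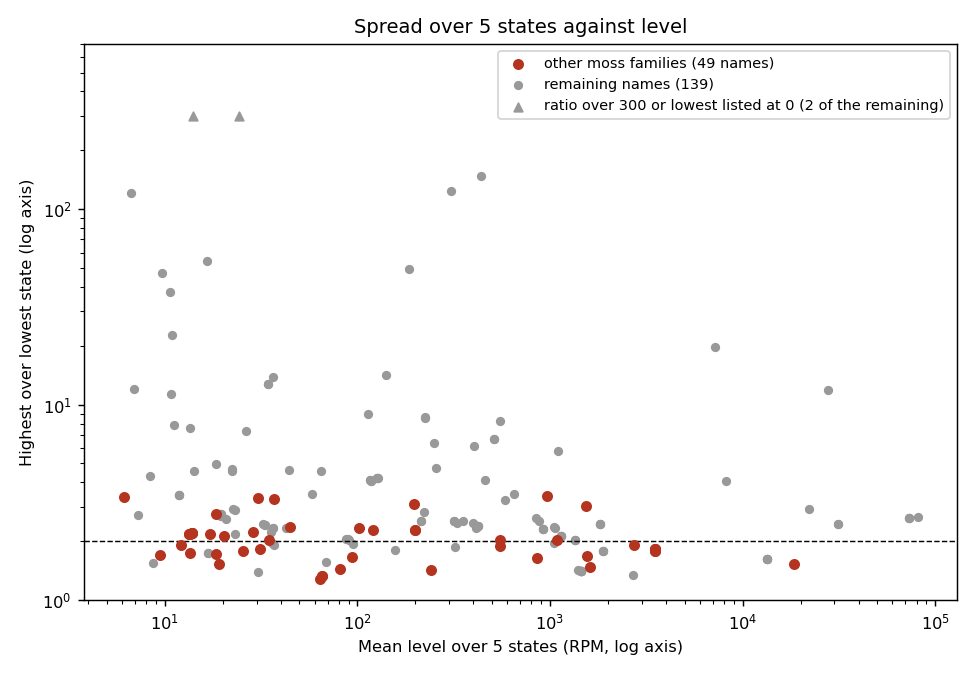
Ratio of the highest to the lowest of the 5 states (vertical log axis) against mean level in RPM (horizontal log axis), with 1 point per name, red for the 49 names of these families and grey for the other 139 at 10 RPM or more, and the dashed line at the limit of 2. All red points lie under 4 at every level, while 48 grey points lie at 4 or above, 2 of them drawn as triangles at 300. This contrast cannot be separated from the choice of families.

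Both limits cut through closely spaced values. The lowest names inside the 10 RPM minimum were miR1037, miR2077 and miR1044-3p, with highest levels of 10.4, 11.7 and 16.4 RPM. Just outside it stood miR1051-3p at 9.8, miR1035 at 9.2 and miR1066 at 7.6 RPM. Nearest to the limit of 2 times were miR1044-3p at a ratio of 1.91 and miR1212 at 1.92 on the steady side, and miR898b at 2.019 and miR1046-5p at 2.021 on the variable side. Below the minimum lay 60 further names of families numbered from miR893 up and not among the 23, of which 30 reached 1 RPM, 22 stayed between 0 and 1 RPM and 8 were listed at 0 in every state. Of the 66 families so defined, 34 had no name at 10 RPM.

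Of the 10 most abundant steady miRNAs, 6 had more in both HD and SDH than in MDH, PRE and FRE: miR1214, miR1033a, miR1212, miR1222a, miR1048-5p and miR1074. The same held for 23.9% of all 188 names. These 6 were also the only ones among the 19 steady values, copies counted once, or 31.6%. With median-of-ratios scaling, an alternative that sets the typical miRNA equal in all states, 3 of the 10 kept that order, miR1033a, miR1212 and miR1074. After this scaling the order held for 15.8% of the 19 steady values and 9.57% of all 188 names. miR1033a, standing for its 5 copies, had 5052 RPM in HD, 2826 and 3950.1 in MDH and SDH, and 2754 and 2874 in PRE and FRE. miR1212 had 3829.6 RPM in HD, 2052 and 3574 in MDH and SDH, and 2126 and 1995 in PRE and FRE. After scaling, the log2 fold change of SDH over MDH was 0.10 for miR1033a, in place of 0.48, and 0.42 for miR1212, in place of 0.80. miR1214 in MDH moved above HD with that scaling, at a log2 fold change of 0.04 in place of -0.31.

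Other abundant steady miRNAs also varied little. miR1045 had 1963 RPM in HD, 1327 and 1585 in MDH and SDH, and 1403 and 1807 in PRE and FRE, a ratio of 1.48. miR1222a stood at 2157 RPM in HD and between 1285 and 1506 RPM in the other 4 states. miR1048-5p lay at 287 RPM in HD, 215 and 273.5 in MDH and SDH, and 227 and 202 in PRE and FRE, a ratio of 1.42.

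miR894, a name also used for small RNAs reported from flowering plants, went the other way from most. Its level was 720.3 RPM in HD, 1185 and 835.5 in MDH and SDH, and 723 and 797 in PRE and FRE. MDH was its highest state by a wide margin and the other 4 lay close together. Only miR1028c-3p, at 24.1 RPM in MDH and between 15.8 and 20.7 RPM elsewhere, shared MDH as its highest state among the 37 values. With median-of-ratios scaling 5 of the 37 were highest in MDH, and miR894 reached a ratio of 2.10, with 1.07 as its log2 fold change of MDH over HD.

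The steadiest of all, miR1040 and miR1027a, were scarcer. miR1040 had 61.1 RPM in HD, 55.5 and 71.4 in MDH and SDH, and 61.6 and 68.6 in PRE and FRE, a ratio of 1.29. miR1027a, standing also for miR1027b, lay between 55.8 RPM in MDH and 73.8 RPM in PRE, a ratio of 1.32. miR1074 had 97.9 RPM in HD, 69.7 and 98.5 in MDH and SDH, and 72.6 and 68.4 in PRE and FRE, with HD and SDH on top. Its ratio of 1.44 was above the 1.42 of the more abundant miR1048-5p. The other scarce steady names, besides miR1028c-3p, were miR1034 (19.8 to 35.2 RPM), miR2079 (21.4 to 39.3 RPM), miR2081 (10.3 to 18.0 RPM), miR2077 (6.9 to 11.7 RPM), miR1044-3p (8.6 to 16.4 RPM) and the star arm miR898a* (13.3 to 23.0 RPM). miR1028c-3p, miR2077 and miR1044-3p had more in MDH, SDH and PRE than in HD. miR2077 and miR1044-3p were under 10 RPM in HD, at 7.1 and 8.6. A level above HD in some other state was therefore fixed by the 10 RPM minimum for these miRNAs. miR2079, miR2081, miR2077 and miR1044-3p had their highest level in SDH, as did 21.3% of all 188 names, but with median-of-ratios scaling only miR2081 of these 4 did, and the others were highest in MDH.

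The variable miRNAs fell into 4 sets by the state of their highest level, 7 values in HD, 3 in SDH, 2 in PRE and 6 in FRE, copies counted once. MDH was the highest state of none and the lowest of 11 of these 18. Of the 18, 38.9% were highest in HD, 16.7% in SDH, 11.1% in PRE and 33.3% in FRE. By name over all 188, the highest state was HD for 38.8%, SDH for 21.3%, PRE for 20.2% and FRE for 13.3%. These 188 include steady names and count every copy, unlike the 18. On the basis of the 188, the 49 names were highest in HD for 40.8%, SDH for 20.4%, PRE for 20.4% and FRE for 14.3%. Those shares were near the ones over all names. MDH was the highest state of 6.38% and the lowest of 33.5% of the 188 names, and of 4.08% and 38.8% of the 49. Median-of-ratios scaling left the counts of highest states for the 18 at 7, 3, 2 and 6 but cut those lowest in MDH to 5. The same scaling put the ratios of miR1025, miR1046-5p, miR1216, miR2084, miR1217-3p, miR1211* and miR898b under 2. It moved miR894 and miR1044-3p, steady as deposited, to ratios of 2.10 and 2.02. All values of the SDH set were then steady.

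**Figure D3:**
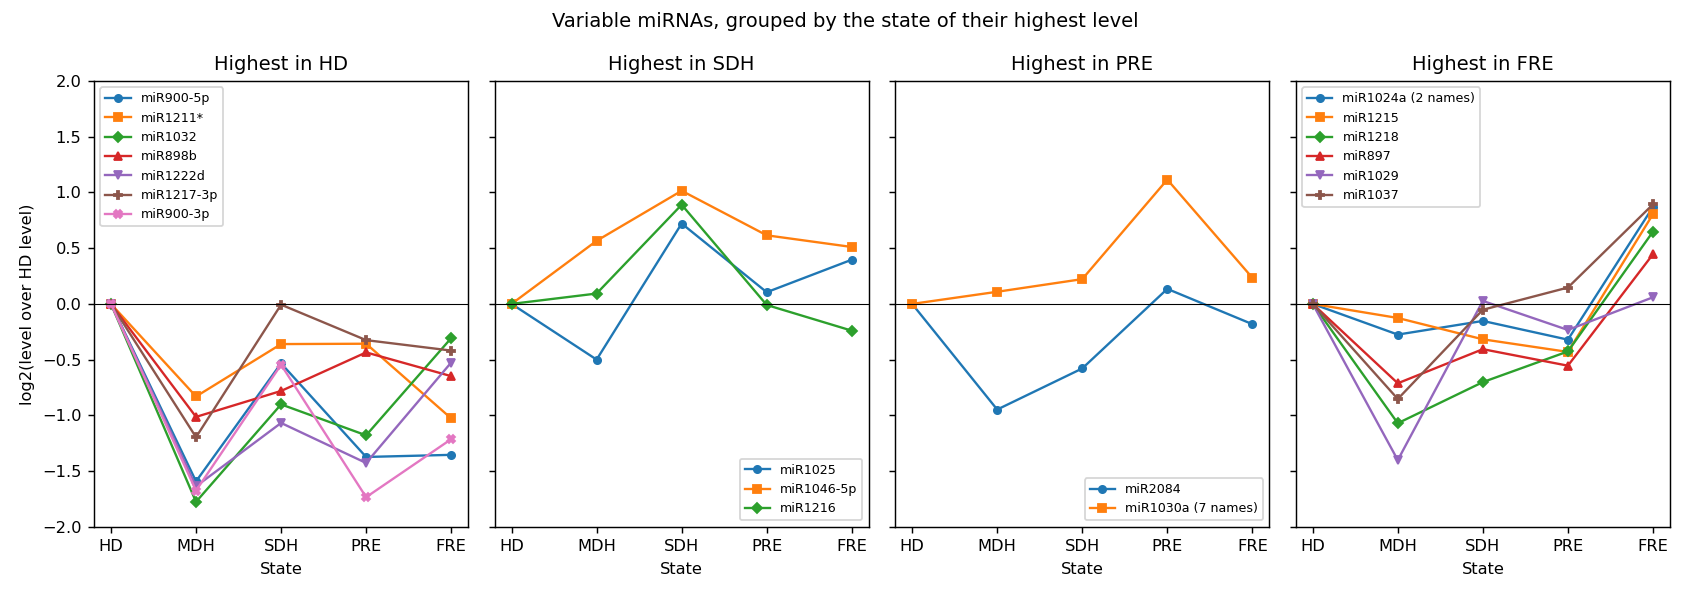
Level relative to HD as log2 of the plain RPM ratio (vertical axis) over the 5 states for the 18 variable miRNAs, with 1 line each and panels by the state of the highest level. Lines in the HD panel dip in MDH, and those in the FRE panel lie below HD in MDH (with median-of-ratios scaling, all but miR1024a and miR1215) and reach their top at FRE.

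The clearest members of the HD set were the 2 arms of miR900, which come from 1 hairpin. miR900-5p stood at 2739 RPM in HD, 908 and 1892 in MDH and SDH, and 1057 and 1071 in PRE and FRE. Its partner miR900-3p, far scarcer, followed at 55.9, 17.5, 38.3, 16.8 and 24.1 RPM in the same states. Both arms were high in HD, intermediate in SDH and low in MDH, PRE and FRE. The log2 fold changes against HD were -1.59 and -0.53 in MDH and SDH and -1.37 and -1.35 in PRE and FRE for the 5p arm, and, in the same order, -1.62, -0.53, -1.68 and -1.18 for the 3p arm, computed as log2((RPM + 1)/(RPM + 1)).

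miR1032 and miR1222d were also highest in HD, but their levels in FRE lay nearer to HD. miR1032 had 1575 RPM in HD, 459.8 and 843 in MDH and SDH, and 695.5 and 1273 in PRE and FRE, the largest ratio of the 49 names at 3.43. miR1222d had 342 RPM in HD, 110.1 and 163 in MDH and SDH, and 127 and 238 in PRE and FRE. For both, the low states were MDH, SDH and PRE, and FRE had 1.83 times and 1.87 times the PRE level.

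A name with the same family number as miR1222d allows a comparison within each state, which no scaling between states can move. miR1222a stood 6.3-fold above miR1222d in HD, 13.2-fold and 9.22-fold in MDH and SDH, and 10.1-fold and 5.85-fold in PRE and FRE. The gap between miR1222a and miR1222d was thus wider in MDH, SDH and PRE than in HD and FRE. The scarce miR1222b and miR1222c, under the 10 RPM minimum, were instead highest in SDH, at 5.5 and 2.8 RPM, and next in PRE, at 4.2 and 2.7 RPM. Unlike miR1222a and miR1222d, miR898b and miR898a were close to each other everywhere. They had 796 and 765 RPM in HD, 394 and 403.5 in MDH, 463 and 499 in SDH, 589 and 579.5 in PRE, and 508 and 504 in FRE. These 2 names lie on either side of the limit of 2 times, at ratios of 2.02 and 1.90, and their difference in class has no weight.

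The last values of the HD set lay close to the limit or dipped in a single state. miR1211* had 1502 RPM in HD, 844.5 and 1170 in MDH and SDH, and 1172 and 737 in PRE and FRE, with FRE lowest. miR1217-3p had 151 RPM in HD, 66.0 and 150.5 in MDH and SDH, and 121 and 113 in PRE and FRE. MDH was by far the lowest state of miR1217-3p, and HD and SDH did not differ by more than 1 RPM.

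Higher in SDH than elsewhere were miR1025, miR1046-5p and miR1216. miR1025 stood at 88.8 RPM in HD, 62.8 and 146 in MDH and SDH, and 95.5 and 117 in PRE and FRE. miR1046-5p had 23.3 RPM in HD, 34.5 and 47.1 in MDH and SDH, and 35.7 and 33.2 in PRE and FRE, so all 4 later states lay above HD. miR1216 was at 27.8 RPM in SDH and between 12.7 and 16.0 RPM in the other 4 states, a single high state. With median-of-ratios scaling SDH was still the highest state of miR1025, miR1046-5p and miR1216. Their ratios were then 1.79, 1.98 and 1.97, under the limit of 2 times.

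The 7 miR1030 copies and miR2084 were highest in PRE. miR1030a had 10.2 RPM in HD, 11.0 and 11.9 in MDH and SDH, and 22.1 and 12.0 in PRE and FRE, flat except for PRE. The other 6 copies had 22.1 to 22.9 RPM in PRE and 10.2 to 12.2 RPM in the other states. miR2084 stood at 24.5 RPM in HD, 12.7 and 16.4 in MDH and SDH, and 26.9 and 21.6 in PRE and FRE, with MDH and SDH low and HD and PRE close.

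In FRE stood the highest levels of miR1024a, miR1215, miR1218, miR897, miR1037 and miR1029. miR1024a, equal to miR1024b, had 187 RPM in HD, 155 and 168 in MDH and SDH, and 149.8 and 342 in PRE and FRE. miR1215 had 43.0 RPM in HD, 39.4 and 34.5 in MDH and SDH, and 31.9 and 75.1 in PRE and FRE. Both were flat to slightly lower through drying and partial rehydration and stood out in FRE alone. With median-of-ratios scaling both lay above HD in MDH, at log2 fold changes of 0.08 and 0.22, and FRE was still their highest state.

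miR1218 and miR897 showed a dip in the earlier states besides the high FRE value. miR1218 had 41.8 RPM in HD, 19.9 and 25.7 in MDH and SDH, and 31.1 and 65.5 in PRE and FRE, a ratio of 3.29. For miR897 the levels were 32.6 RPM in HD, 19.9 and 24.6 in MDH and SDH, and 22.2 and 44.4 in PRE and FRE. HD was the second highest state for both, below FRE and above MDH, SDH and PRE.

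The scarce miR1037 and miR1029 complete that set. miR1037 had 5.6 RPM in HD, 3.1 and 5.4 in MDH and SDH, and 6.2 and 10.4 in PRE and FRE. Since only FRE reached the 10 RPM minimum, FRE as the highest state of miR1037 followed from the choice of names. miR1029 stood at 21.4 RPM in HD, 8.1 and 21.8 in MDH and SDH, and 18.2 and 22.3 in PRE and FRE. For miR1029 the MDH value stood farthest from the rest, and FRE, SDH and HD lay within 1 RPM of each other.

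Set state against state, few of these names passed 2-fold on the scale of log2((RPM + 1)/(RPM + 1)). The 188 names set beside them include the families set apart with known changes. Fewer calls among the 49 can therefore not be separated from the choice of families. In MDH against HD none of the 49 was at least 2-fold higher (9.04% of all 188 names) and 8 were at least 2-fold lower, or 16.3% (24.5% of all names). The 8 were miR900-5p, miR900-3p, miR1032, miR1222d, miR898b, miR1029, miR1217-3p and miR1218. The median log2 fold change was -0.49 over the 49 names and -0.38 over all 188. With median-of-ratios scaling the median over the 188 names shifted up by 0.35 in this comparison, and 4 of the 8 still passed 2-fold: miR900-5p, miR900-3p, miR1032 and miR1222d. The other 4 were lower by less, at scaled log2 fold changes of -0.98 (miR1029), -0.84 (miR1217-3p), -0.70 (miR1218) and -0.66 (miR898b). A pseudocount of 10 RPM left 5, without miR898b, miR1029 and miR1218.

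**Figure D4:**
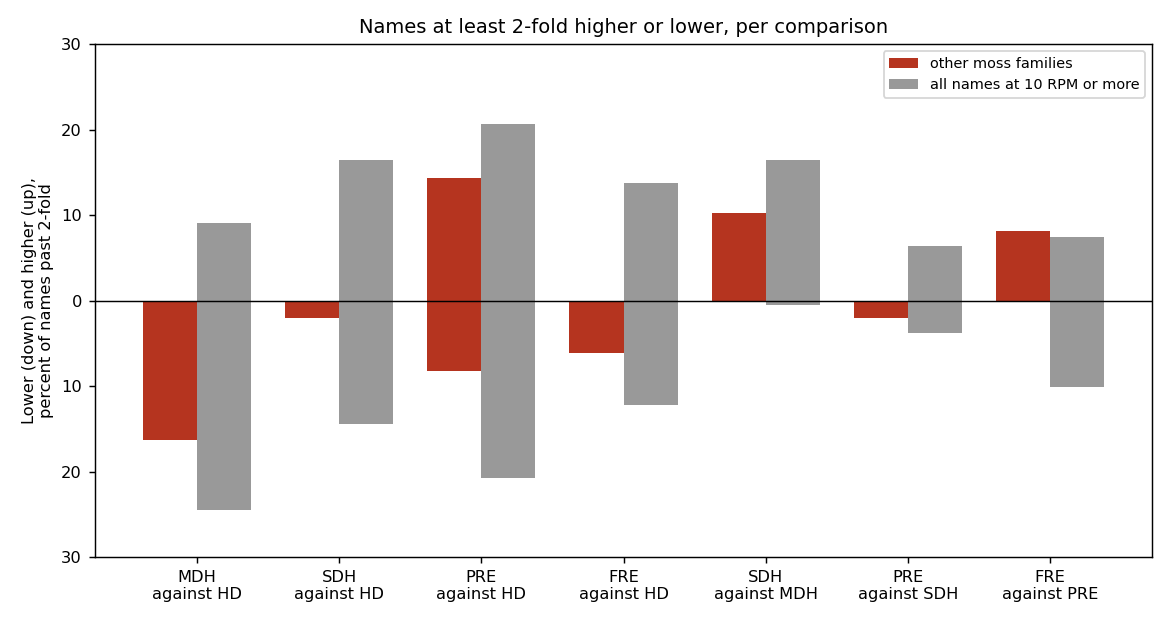
Percent of names at least 2-fold higher (bars up) or lower (bars down) in each of 7 comparisons, red for the 49 names of these families and grey for all 188 names at 10 RPM or more. Red bars are shorter than grey ones in both directions, except for higher names in FRE against PRE (8.16% and 7.45%). The shorter bars cannot be separated from the choice of families, since those set apart had known changes.

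Among the 49 names, the fewest passed 2-fold from HD in SDH, which was not so over all 188 names (58 in SDH and 49 in FRE). This rests on very few names, 1 in SDH and 3 in FRE. With median-of-ratios scaling, or with a pseudocount of 10 RPM, 1 was lower in SDH and 2 in FRE, and none higher. In SDH against HD none of the 49 names was higher (16.5% of all names) and 1, miR1222d, was lower at 163 RPM in SDH and 342 RPM in HD, a log2 fold change of -1.06 (14.4% of all names were lower). The median was -0.07, and -0.05 over all names. In PRE against HD, 7 names were higher (20.7% of all), which are the 7 copies of miR1030 and so 1 observation, and 4 were lower (20.7% of all): miR900-5p, miR900-3p, miR1032 and miR1222d. miR1030a had a log2 fold change of 1.04 in PRE over HD, which dropped to 0.67 with a pseudocount of 10 RPM. In FRE against HD none was higher (13.8% of all) and 3 were lower (12.2% of all), miR900-5p, miR900-3p and miR1211*, of which miR1211* no longer passed after median-of-ratios scaling, at -0.91 in place of -1.03, and miR900-3p no longer passed with a pseudocount of 10 RPM, at -0.95 in place of -1.18. These 4 comparisons share the HD value, so a value that is off in HD moves all of them. Over the 49 names, 33 passed 2-fold in none of the 4 and none passed in all 4, while of all 188 names 75 passed in none and 21 in all 4. This contrast too cannot be separated from the choice of families.

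Consecutive states were compared next, where each comparison shares 1 state with its neighbour. In SDH against MDH, 5 names were at least 2-fold higher (16.5% of all) and none lower (0.532% of all). They were miR900-5p, miR900-3p, miR1025, miR1029 and miR1217-3p. Nearly every level was higher in SDH than in MDH, 46 of the 49 names, or 93.9%, and 80.3% of all names, with medians of 0.34 and 0.36. After median-of-ratios scaling none of the 5 passed 2-fold, and 17 of the 37 values lay above MDH and 20 below, so the direction of this general difference depends on the scaling. miR1025 had the log2 fold change 1.21 as deposited and 0.83 scaled.

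At the first rewetting step, PRE against SDH, none of the 49 was higher (6.38% of all) and 1 was lower (3.72% of all), miR900-3p, at 16.8 RPM in PRE and 38.3 RPM in SDH. With a pseudocount of 10 RPM it no longer passed. In FRE against PRE 4 names were higher (7.45% of all) and none lower (10.1% of all). These were miR1024a with its copy miR1024b, miR1215 and miR1218, at log2 fold changes of 1.18, 1.21 and 1.05, and all 4 passed with median-of-ratios scaling too. With a pseudocount of 10 RPM miR1218 no longer passed, at 0.88. Their plain ratios of FRE over PRE were 2.28, 2.35 and 2.11.

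The authors' deposited table marks a miRNA where its fold change passes 2-fold and its p is under 0.05. It marks 8 of the 49 names as lower and none as higher for MDH against HD, 1 lower and 1 higher for SDH, 4 lower and 7 higher for PRE and 3 lower and none higher for FRE. These are the names given above with the addition of miR1046-5p as higher in SDH, where the plain ratio of 2.02 passes 2-fold and the ratio with a pseudocount of 1 RPM does not. That table gives 1 combined value per group and the test behind its p-values is not given. Those p-values can therefore not be taken to measure the spread between samples.

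Arm ratios do not depend on scaling between states, and 3 hairpins had both arms among the 49 names. miR900-5p stood 49.0-fold above miR900-3p in HD, 51.9-fold and 49.4-fold in MDH and SDH, and 62.9-fold and 44.4-fold in PRE and FRE. The log2 ratio of these arms thus moved over 0.50, while the level of each arm moved over a ratio of 3 or more. miR898a stood 33.2-fold above miR898a* in HD, 30.3-fold and 25.7-fold in MDH and SDH, and 28.4-fold and 31.3-fold in PRE and FRE, a range of 0.37 on the log2 scale.

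For miR1211 the name and the levels run in opposite directions. The arm named with a star was 12.0-fold above the other in HD, 10.9-fold in MDH, 13.7-fold in SDH, 11.2-fold in PRE and 9.87-fold in FRE. miR1211 itself had 125 RPM in HD, 77.8 and 85.4 in MDH and SDH, and 105 and 74.7 in PRE and FRE. The star marks the less abundant arm by convention, and here it was the more abundant one in every state.

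The hairpin of miR1217 stood apart. Its scarce arm miR1217-5p, which is below the 10 RPM minimum, had 7.2 RPM in HD, 1.0 and 1.4 in MDH and SDH, and 6.2 and 4.8 in PRE and FRE. The 3p arm was therefore 21.0-fold above it in HD, 66.0-fold and 107.5-fold in MDH and SDH, and 19.5-fold and 23.6-fold in PRE and FRE. In SDH the 3p arm was at the HD level and the 5p arm was not, so the arms moved apart in the 2 dried states, by a log2 range of 2.47. The values of 1.0 and 1.4 RPM lie near the bottom of the scale, and their error is unknown. The remaining pair with measurable arms, miR1028c, had a ratio between 13.9 in PRE and 17.2 in SDH. For miR1044-3p, miR1046-5p and miR1048-5p the other arm stayed at or under 0.6 RPM in every state.

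**Figure D5:**
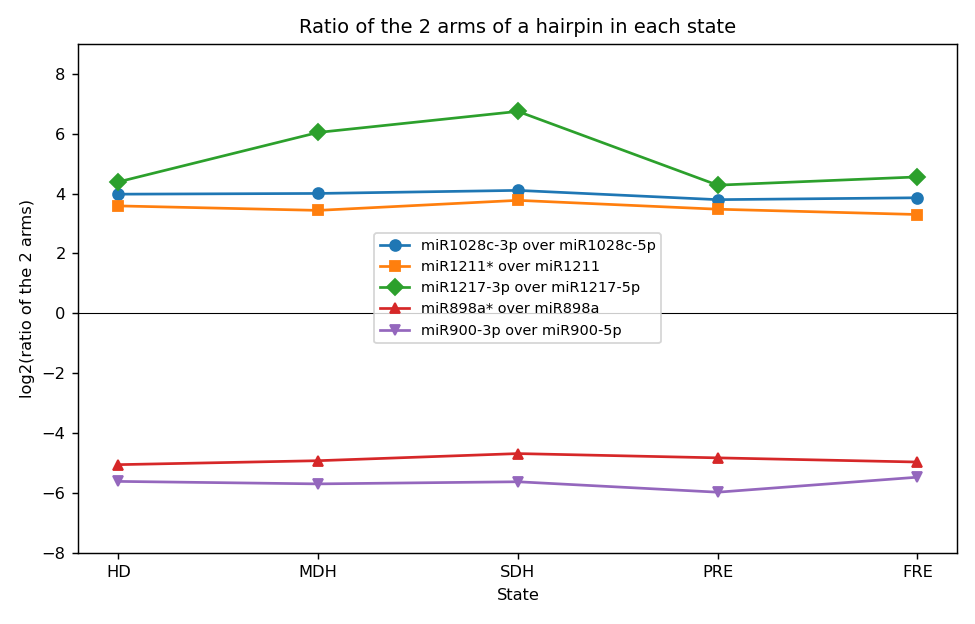
log2 ratio of the 2 arms of a hairpin (vertical axis) in the 5 states for the 5 hairpins with a name in these families and both arms at 1 RPM or more in every state, with 1 line each. The line of miR1217 lies higher in MDH and SDH, at 6.04 and 6.75, than in HD, PRE and FRE, while the other 4 lines are nearly flat.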

How the data were processed

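Small RNA levels of 10 samples in 5 groups were analysed as deposited. The authors deposited levels in RPM, 1 value per group, in steps of 0.1. The 4 tables of levels share identical HD values and were joined by name. The other 4 tables hold the authors' comparisons: a total of 10000000 in every row, an expression score of 10 per RPM, log2 fold changes and p-values, deposited by the authors. Aligner, genome build, miRNA reference, the test behind the p-values and the way samples were combined: not given in the sources used here. Groups follow the titles. Since no column holds a single library, the linear model foreseen for libraries was not run, depth is unknown and no interval was computed.

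Computed here with Python 3.11.15, pandas 2.3.3 and numpy 2.4.6 were the ratio of highest to lowest state, log2((RPM + 1)/(RPM + 1)) with calls at 2-fold for 7 comparisons, and ratios of arms at 1 RPM or more in every state. The background was every name at 10 RPM or more in any group under the same call. Alternatives were a pseudocount of 10 RPM, no minimum or 30 RPM, median-of-ratios scaling (factors of 1.09, 0.851, 1.11, 1.00 and 0.998 for HD, MDH, SDH, PRE and FRE), copies counted once, the authors' marks, and limits of 1.5 and 3 times. The code for the calls was checked with large known changes put on simulated levels with little noise. That check does not measure the error of calls near 2-fold.

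Named with full values are the 10 most abundant steady and the 15 most changed and 5 most abundant variable miRNAs, their other arms and those nearest each limit. The others named were chosen after their values were seen: miR1217-5p, miR1027a, miR1028c-3p, miR1034, miR1040, miR2079 and miR2081, and pairs set against each other. The members and lists were chosen with earlier results of these data known.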

Additional observations from a re-analysis of the deposited data

How the results depend on the processing

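Levels are 1 combined value per group, so no replicate could be left out. No paired analysis was possible because the columns carry no replicate number. The count of steady names, 24 of 49, stayed within 1.5 times of 24 without a minimum (34 of 101) and with a minimum of 30 RPM (19 of 33). It did so too with median-of-ratios scaling (29 of 49) and with copies counted once (19 of 37). Since the totals differ, the steady share was lower without a minimum and higher at 30 RPM. The count moved to 6 and 43 with limits of 1.5 and 3 times. The 25 variable names became 67 of 101 without a minimum, 14 of 33 at 30 RPM, and 43 and 6 with those limits. Median-of-ratios scaling gave 1 higher (miR894) and 4 lower in MDH against HD, in place of none and 8, and none in place of 5 higher in SDH against MDH. A pseudocount of 10 RPM gave 5 lower in MDH against HD, none in place of 7 higher in PRE against HD, 3 in place of 5 higher in SDH against MDH, none in place of 1 lower in PRE against SDH, and 3 in place of 4 higher in FRE against PRE. Without a minimum, counts were 4 higher and 2 lower for SDH against HD, 13 higher for PRE against HD, 3 higher for FRE against HD, 4 higher for PRE against SDH and 3 lower for FRE against PRE. The 7 higher names in PRE against HD became none (0) at 30 RPM and 1 with copies counted once. The authors' marks gave 1 higher in SDH against HD. In the named miRNAs no called value changed sign under a pseudocount of 10 RPM or median-of-ratios scaling, and 5 and 6 of 124 values crossed 2-fold. Where no construction shows it, the cause was not tested.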
